A study of Mus musculus with 3 samples.

Results

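The translation initiation and elongation factor genes described here are the 63 genes, of 32285 listed, whose symbols begin with Eif or Eef followed by a digit. Names ending in -ps, which mark pseudogenes, were left out. Names beginning with Eif2ak, which are kinases of the initiation factor eIF2, and with Eif4ebp, which are inhibitors of the cap-binding protein, were also left out and are counted below among the pathway's other genes. The genes were followed in E14, an established line of mouse embryonic stem cells, cultured with serum and the cytokine LIF, which holds such cells undifferentiated. A day after seeding, cells received 10 uM tubercidin for 3 h, 10 uM tubercidin for 6 h, or for the control the solvent DMSO for 6 h. Tubercidin is an analogue of adenosine. All groups share the line, the medium and the time after seeding at which treatment began, and no genetic change separates them. Since DMSO was given for 6 h, the 3 h library has no control of its own duration. In its ratios to the control and to the 6 h library, tubercidin and time in culture cannot be told apart. Each group is 1 library from 1 cell line, so the spread between cultures is unknown, no difference was tested, and every interval below is a 95% interval for counting error only.

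The measure was the number of unique molecular identifiers (UMIs), each standing for 1 captured RNA molecule, sequenced from the 3' end of polyadenylated RNA. Called cells numbered 2031 in the control, then 2365 at 3 h and 2926 at 6 h, with 104892739, 29892000 and 24681924 UMIs. The median cell held 48452, 11877 and 8004.5 UMIs, and how far RNA content and sequencing depth each set this difference cannot be told apart. All levels are therefore UMIs of the called cells scaled to the usual per-million total (CPM), a share of the RNA captured and not an amount per cell. Per cell, all 56 factor genes tested at either time were lower than in the control. Ratios were compared for the 7884 genes whose mean over the libraries reached 10 CPM. On the CPM scale their median log2 ratio to the control was -0.27 for 3 h and -0.12 for 6 h. TMM factors, which set the typical gene near no change, moved these medians to -0.02 and -0.0042. The 8 embryonic stem cell markers had UMIs in every library and summed to 4347, 5178 and 3785 CPM, most of it from Dppa5a (2549, 3555 and 2263 CPM). They did not move as 1: Sox2 had 205, 80.6 and 81.1 CPM and Esrrb 102, 130.5 and 193 CPM. Summed markers of 2-cell-like cells, primitive endoderm and fibroblasts stayed between 0 and 10.8 CPM. Trophoblast markers summed to 39.7, 46.1 and 46.2 CPM, most of it from Krt8 (21.7, 29.5 and 29.0 CPM). Of the others, Tfap2c had 12.0, 7.93 and 9.80 CPM and Krt18 4.46, 7.43 and 6.24 CPM. Cdx2, Krt7, Elf5 and Eomes stayed at or below 0.82 CPM in every library. Each pair of libraries shared 1 cell barcode.

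Translation begins when eIF2 carries the initiator tRNA to the small ribosomal subunit, which eIF3, eIF1 and eIF1A prepare, while eIF4 proteins bind the capped end of the mRNA and unwind it. eIF5 and eIF5B then release the first factors and let the large subunit join. During elongation, eEF1A brings each aminoacyl-tRNA to the ribosome and eEF2 moves the ribosome by a codon. Several of these mRNAs, above all those of the elongation factors, begin with a run of pyrimidines, the terminal oligopyrimidine (TOP) motif, through which growth signalling sets how well they are translated. Fast-dividing stem cells make the factors in large amounts.

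Levels differed far more between genes than between libraries. UMIs were found in all 3 libraries for 61 of the 63 genes, and 56 genes reached a mean of 10 CPM and were compared. Since a UMI is counted once per molecule from its 3' end, CPM values of different genes do not grow with transcript length, though how well each 3' end was captured and mapped was not tested. Eef1a1, which encodes the tRNA-carrying elongation factor eEF1A1, stood highest in every library, at 5646 CPM in the control, then 5458 at 3 h and 4369 at 6 h. By mean level the next was Eif2s2, the beta subunit of eIF2, with 1747, 1726 and 1941 CPM. Eef1b2, a subunit of the nucleotide exchange factor for eEF1A, had 1900.2, 1901 and 1499 CPM. Eif5a, which helps ribosomes past difficult peptide bonds, had 1554, 1520.1 and 1419.7 CPM. Eef1g, another subunit of the exchange complex, had 1212, 1506 and 1479.8 CPM. Eef1b2 thus stood above Eif2s2 in the control and 3 h libraries and below it in the 6 h library, beyond counting error each time.

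The 7 genes below 10 CPM included the muscle and neuron form of eEF1A, Eef1a2, at 0.381, 0.703 and 0.567 CPM. Eif5a2, the second eIF5A gene, had 4.19, 2.61 and 2.96 CPM. The methyltransferase genes Eef1akmt2 and Eef1akmt3 lay between 1.17 and 3.58 CPM, and Eif4e3, a divergent cap-binding protein, between 0.081 and 0.502 CPM. The oocyte form of the cap-binding protein, Eif4e1b, had 5 control cells of 2031 with a UMI, and no UMI at 3 h or 6 h, where 0 counts allow up to 0.100 and 0.122 CPM. Eif2c5, whose name comes from the older naming of the Argonaute family and not from a translation factor, stayed at or below 0.162 CPM.

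**Figure D1:**
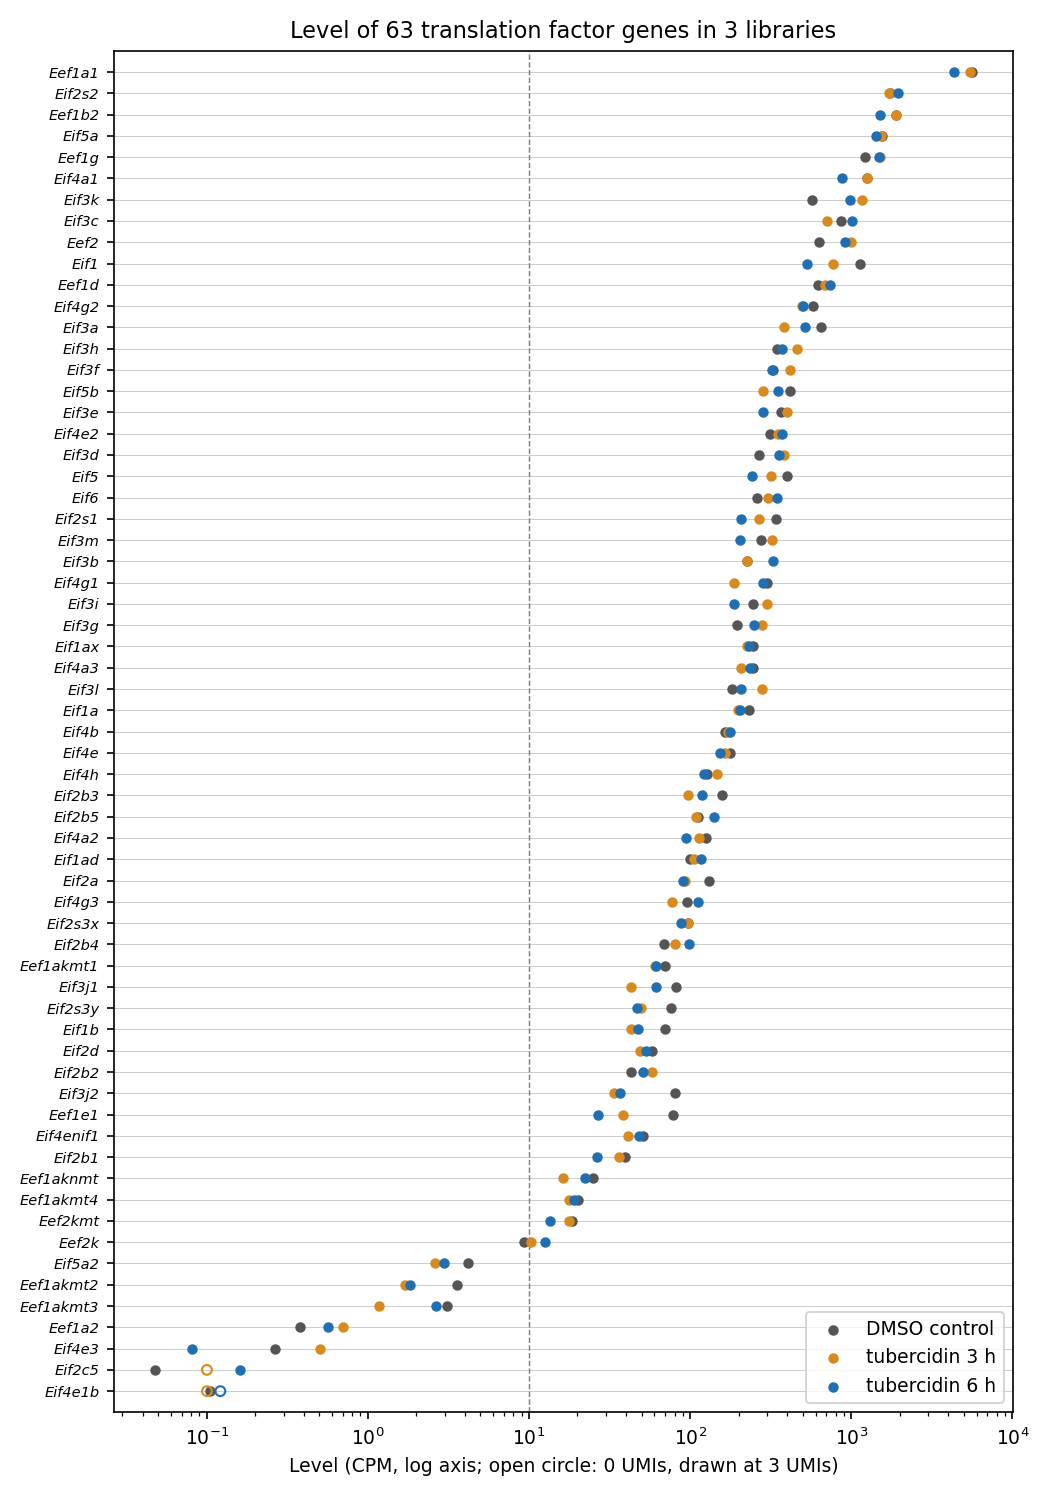
Level of each of the 63 genes, ordered by mean, in CPM on a log axis, with 1 point per library; open circles mark libraries with 0 UMIs, drawn at the level of 3 UMIs, and the dashed line marks 10 CPM. Eef1a1 is the highest gene in all libraries, and 7 genes lie left of the dashed line.

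Together the 63 genes held 2.56% of UMIs in the control, then 2.57% at 3 h and 2.36% at 6 h. Without Eef1a1 the shares were 2.00%, 2.03% and 1.92%. Cells were alike in the control, where the central 90% of cells ran from 2.23% to 2.86%. At 3 h that range was 1.66% to 2.94%, and at 6 h 1.82% to 2.79%. The medians over cells were 2.57%, 2.58% and 2.36%, so the 3 h range widened on the low side, while at 6 h the range widened and the median was lower. Cells giving less than 2% of their UMIs to these genes numbered 45 of 2031 in the control (2.22%, exact binomial interval 1.62 to 2.95), 195 of 2365 at 3 h (8.25%, 7.17 to 9.43) and 280 of 2926 at 6 h (9.57%, 8.53 to 10.7). These cells held fewer UMIs than the rest, with medians of 14910.0, 4062 and 4545.5 against 48711.5, 12343.5 and 8190.5. Their median mitochondrial share was 9.37%, 10.5% and 4.30%, against 2.86%, 3.19% and 2.75% in the rest. Shares per cell were taken without thinning, and depth per cell differed between the libraries. What part depth has in the width of the ranges was not tested. Nor was the part of depth and mitochondrial share in the low factor share.

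Cells in which more than 10% of UMIs were mitochondrial numbered 26, 124 and 50. In them the factor genes held 1.56%, 1.58% and 1.38% of UMIs, against 2.57%, 2.59% and 2.36% in the other cells. Eef1a1 stood at 2736, 1292 and 1572 CPM in the former and at 5657, 5529 and 4384 CPM in the latter. Picking cells for a high mitochondrial share lowers the share of other genes by itself. Of the UMIs not mitochondrially encoded, the factor genes held 1.79%, 1.81% and 1.58% in these cells, against 2.65%, 2.68% and 2.43% in the others. The lower share in these cells was thus found in all libraries, the DMSO control included, on either base. In barcodes without cells, those below rank 5000 and down to rank 15000, taken as free RNA, the genes held 2.04%, 2.54% and 2.11% of UMIs.

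At 3 h, the median log2 ratio to the DMSO control over the 56 factor genes was -0.06, above the -0.27 of all genes, and 39 of the 56 lay above the median gene. The value is the log2 ratio of CPM + 1. At least 2-fold higher was 1 gene, Eif3k, where 0.888% of all genes passed that mark. At least 2-fold lower were 2 genes, Eef1e1 and Eif3j2 (5.54% of all genes). At least 1.5-fold higher were 3 genes, Eif3k, Eef2 and Eif3l (3.61% of all genes). At least 1.5-fold lower were 8 genes (24.5% of all genes), namely Eif3j1, Eif3j2, Eif3a, Eif4g1, Eif2b3, Eif1b, Eif2s3y and Eef1e1. This split depended on the scaling: with TMM factors 8 genes were 1.5-fold higher (9.65% of all genes) and 3 lower (10.4%). The 3 lower genes were then Eif3j1, Eif3j2 and Eef1e1. At 2-fold TMM left Eif3k higher (1 gene, 1.93% of all genes) and 0 lower (1.92%).

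At 6 h the median over the 56 genes was -0.14, beside -0.12 for all genes, and 27 lay above the median gene. None was 2-fold higher (2.33% of all genes) and 3 were 2-fold lower, Eif1, Eef1e1 and Eif3j2 (4.41% of all genes). Eif3k alone was 1.5-fold higher (7.06% of all genes). The genes at least 1.5-fold lower numbered 6 (16.9% of all genes), Eif1, Eif2s1, Eif5, Eif2s3y, Eif3j2 and Eef1e1. With TMM factors 4 were 1.5-fold higher (10.8% of all genes), with Eef2, Eif3b and Eif2b4 added to Eif3k, and 5 were lower (12.1%). At 2-fold 0 were then higher (3.01% of all genes) and 1 lower, Eef1e1 (3.13%). The 3 h and 6 h libraries were compared with the same control, so their ratios are not independent.

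Between the tubercidin libraries, at 6 h relative to 3 h, the 56 genes had a median of -0.01 where all genes had 0.14, and 18 lay above the median gene. No factor gene was 2-fold higher (1.64% of all genes) or 2-fold lower (0.165%). Eif4g1 was 1.5-fold higher (8.51% of all genes), and Eif3m and Eif3i were 1.5-fold lower (1.67%). With TMM factors 0 were 2-fold higher (0.964% of all genes) or lower (0.368%), 0 were 1.5-fold higher (4.25%) and 6 were 1.5-fold lower (3.83%). The 6 were Eif3m, Eif3i, Eif3e, Eif4a1, Eif1 and Eef1e1.

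**Figure D2:**
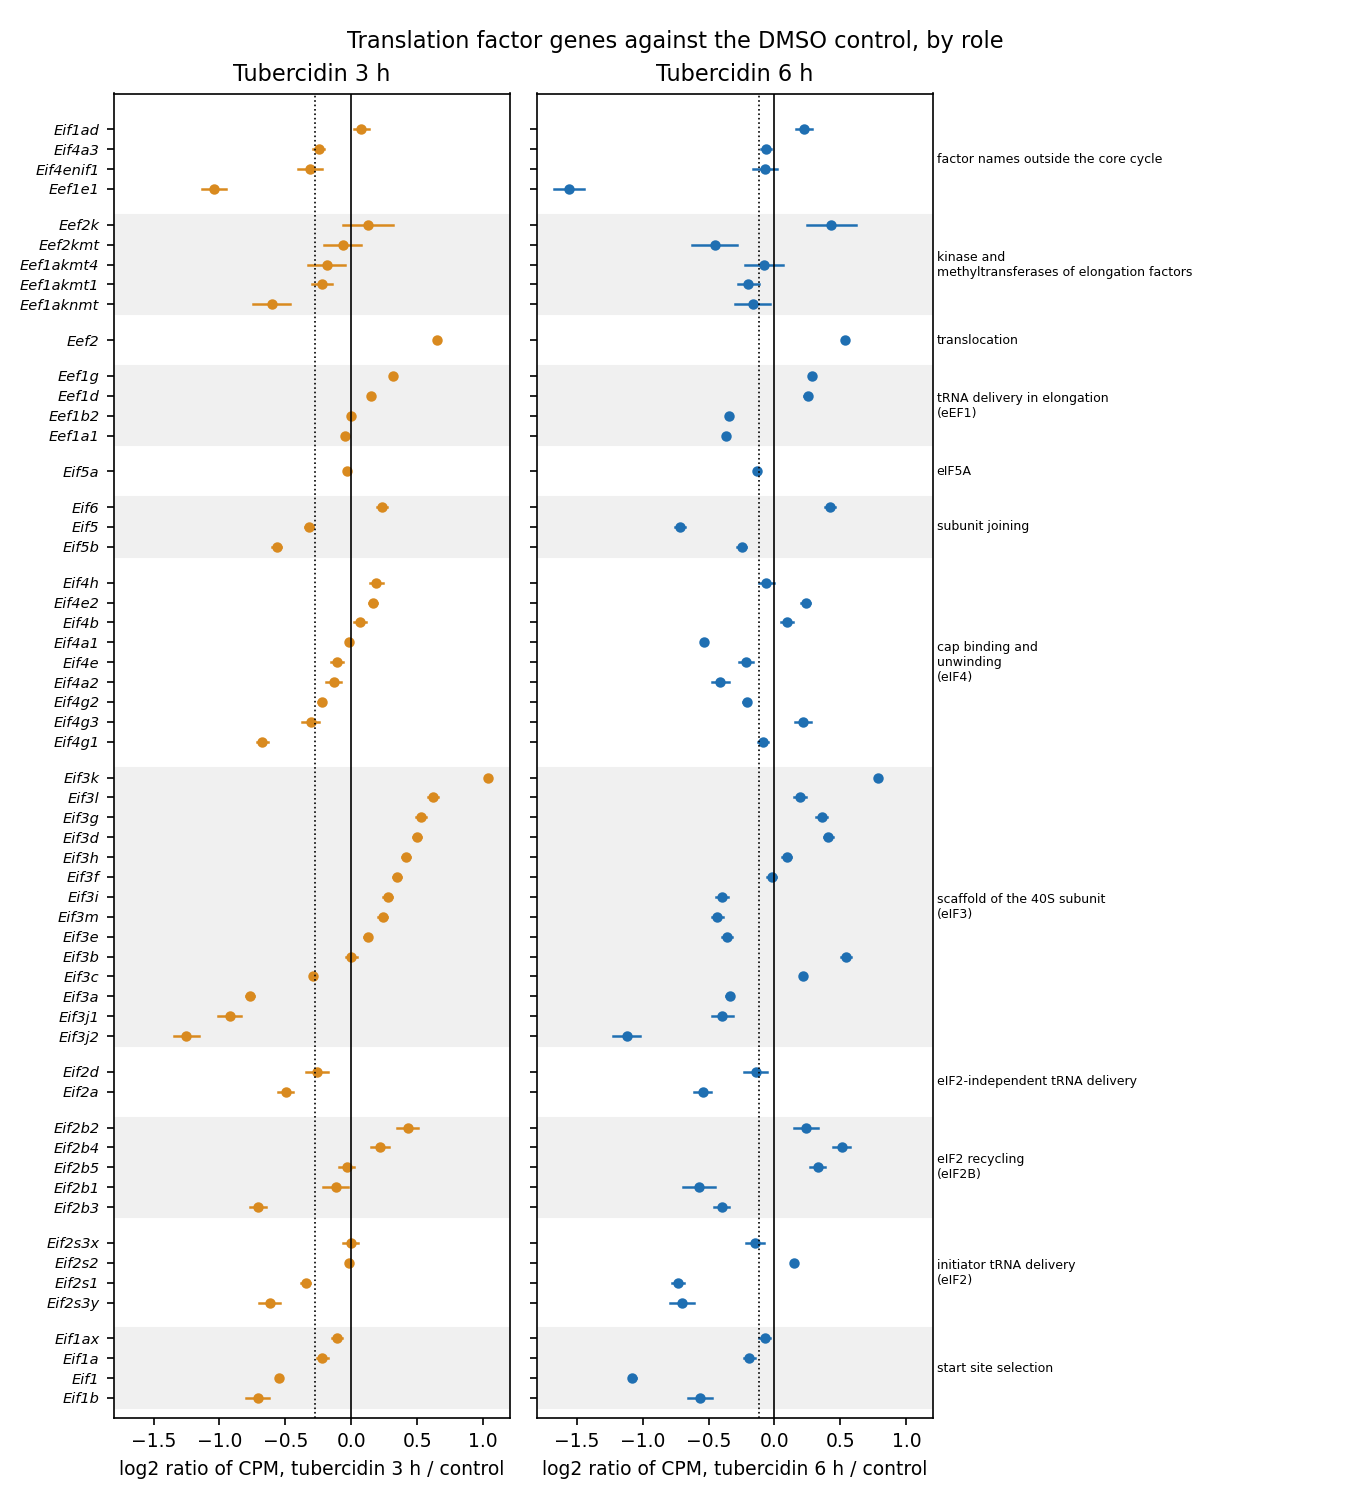
Log2 ratio of CPM to the DMSO control for the 56 genes compared, at 3 h (left) and 6 h (right), grouped by role; bars are 95% counting intervals, the solid line is no difference and the dotted line the median of all genes. Eif3k lies farthest right in both panels, and Eif3j2 and Eef1e1 farthest left at 3 h and 6 h respectively.

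Promoters of 7 genes, picked by hand, are shown. They include Eif3k, highest by ratio at both times, and Eef1e1, lowest at 6 h. Eif3j2, lowest at 3 h (-1.23), is not shown, and Eif3f (0.34 and -0.02) is not an extreme. A motif bound by MYC-family and related factors, the E-box, occurs among the genes shown in some that were higher and some that were lower at 3 h. Each stretch runs from 120 bases before to 30 after the RefSeq start on GRCm38.p6, the patch of the build (mm10) that the submitters' notes name, 5' to 3' on the gene's strand. Capitals mark a TATA motif near the start, a pyrimidine run of at least 8 bases that opens with C, or the E-box, whose letters are CACGTG. The TATA motif is spelled out in the following paragraph. Eif3k lies at chr7:28981859-28982008 on the minus strand, Eef2 at chr10:81176511-81176660 on the plus strand and Eif3f at chr7:108934295-108934444 on the plus strand. Eif4g1 lies at chr16:20672607-20672756 on the plus strand and Eif3a at chr19:60790664-60790813 on the minus strand. Eif1 lies at chr11:100319829-100319978 on the plus strand and Eef1e1 at chr13:38658999-38659148 on the minus strand.
Eif3k: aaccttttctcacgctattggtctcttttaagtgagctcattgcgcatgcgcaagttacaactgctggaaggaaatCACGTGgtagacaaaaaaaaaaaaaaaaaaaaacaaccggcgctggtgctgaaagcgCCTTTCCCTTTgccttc
Eef2: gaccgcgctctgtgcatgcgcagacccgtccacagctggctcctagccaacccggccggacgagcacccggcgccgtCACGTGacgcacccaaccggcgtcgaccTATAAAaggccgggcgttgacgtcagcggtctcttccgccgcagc
Eif3f: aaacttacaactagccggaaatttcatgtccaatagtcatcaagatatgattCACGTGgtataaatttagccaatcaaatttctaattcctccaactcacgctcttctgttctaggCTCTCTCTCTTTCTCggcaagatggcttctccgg
Eif4g1: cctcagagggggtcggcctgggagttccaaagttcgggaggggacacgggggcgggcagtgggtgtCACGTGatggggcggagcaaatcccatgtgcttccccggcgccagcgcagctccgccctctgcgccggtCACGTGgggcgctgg
Eif3a: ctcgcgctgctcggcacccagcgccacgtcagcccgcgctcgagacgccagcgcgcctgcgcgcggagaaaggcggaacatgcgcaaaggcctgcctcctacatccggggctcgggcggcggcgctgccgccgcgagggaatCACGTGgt
Eif1: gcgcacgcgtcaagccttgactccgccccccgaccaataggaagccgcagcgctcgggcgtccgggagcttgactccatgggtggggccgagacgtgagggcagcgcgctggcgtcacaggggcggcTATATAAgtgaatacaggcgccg
Eef1e1: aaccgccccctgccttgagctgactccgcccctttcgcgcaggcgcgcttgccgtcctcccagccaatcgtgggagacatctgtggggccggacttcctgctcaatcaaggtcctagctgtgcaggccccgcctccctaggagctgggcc

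Eif3k and Eef2, the highest genes by 3 h ratio, each carry an E-box, and so do Eif3a and Eif4g1, which were lower at 3 h. RefSeq start windows were matched for 49 of the 63 genes. A gene was counted when any of its windows held the motif. The E-box, a palindrome read on both strands at once, stood between positions -250 and 30 from the start in 14 of the 49 (28.6%). It stood there in 12.3% of the 6302 compared genes with a window and in 7.71% of all 27025 genes with a window. Median log2 ratios of the 13 compared genes with it were -0.03 and -0.09 for 3 h and 6 h, and those of the 32 without it -0.08 and -0.11. The medians with and without the motif lay close together. A TATA motif on the gene's strand was either the plain TATAAA, as in Eef2, or the form with another repeat of its opening letters, TATATAA, as in Eif1. From 50 bases before to 30 after the start, either form was found in 3 of 49 (6.12%), Eef1a1, Eef2 and Eif1. It was found in 2.02% of compared genes and 4.38% of all genes with a window. The pyrimidine run, on the gene's strand from 10 bases before to 30 after the start, was found in 12 of 49 (24.5%), against 13.1% and 12.9%. A match describes these letters only, and none of the motifs overlaps another in the stretches shown.

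Start site selection is the task of eIF1 and eIF1A, which hold the small subunit open while it scans. Eif1 had 1129 CPM in the control, then 771 at 3 h and 534 at 6 h. It was lower at both times, with log2 ratios of -0.55 (interval -0.57 to -0.53) and -1.08 (-1.11 to -1.05), and the 6 h level was the lowest of the libraries. Its close copy Eif1b had 70.3, 43.0 and 47.6 CPM. Both kept their sign with TMM factors, where Eif1 stood at -0.28 and -0.96. Within the pair, Eif1b held 5.86% of UMIs in the control, then 5.28% at 3 h and 8.18% at 6 h, with intervals that did not overlap between any of the libraries. Eif1a had 231.9, 199 and 203 CPM (-0.22 and -0.19), and its X-linked counterpart Eif1ax 244, 227 and 232 CPM (-0.11 and -0.08). At 3 h both lay above the median gene.

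The subunits of eIF2, which delivers the initiator tRNA, did not move together. Eif2s1, the alpha subunit whose phosphorylation slows initiation under stress, had 341, 269 and 205 CPM. Its log2 ratios were -0.34 at 3 h and -0.73 at 6 h, so the level was lower at each time on the CPM scale. With TMM factors the ratios were -0.08 and -0.61, and the 3 h level was then close to that of the median gene. Eif2s2, the beta subunit, stood at -0.02 and 0.15. The gamma subunit is encoded by an X-linked and a Y-linked gene: Eif2s3x had 97.5, 97.1 and 87.9 CPM and Eif2s3y 76.0, 49.5 and 46.7 CPM. The Y-linked gene thus gave 43.8% of the pair's UMIs in the control (interval 43.1 to 44.5), against 33.8% (32.4 to 35.2) in the 3 h and 34.7% (33.1 to 36.4) in the 6 h library. The 2 tubercidin libraries overlap in this share and both lie below the control. A share within a pair does not depend on how a library is scaled, though the copies are alike in sequence and the mapping of reads between them was not tested. Of control cells, 88.2% had a UMI of Eif2s3y, while 95.8% had one of Eef1e1, a gene at a like level (78.5 CPM). Whether cells without Eif2s3y RNA differ in number between the libraries, and so move the share, was not tested.

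eIF2B recharges eIF2 with GTP. Of its 5 genes, Eif2b2, Eif2b4 and Eif2b5 were at or above the control and Eif2b1 and Eif2b3 below. Eif2b4, a regulatory subunit gene of that family, had 69.1, 80.3 and 98.3 CPM, highest at 6 h with a log2 ratio of 0.50. Eif2b5, the catalytic subunit, had 111.9, 109 and 140.4 CPM, with a ratio of 0.32 at 6 h, while its 3 h interval on the CPM scale held 0. Eif2b2, also regulatory, had 43.1, 57.9 and 51.0 CPM and a ratio of 0.42 at 3 h. Eif2b3 had 157.5, 96.4 and 119 CPM, lowest at 3 h (-0.70), and Eif2b1 39.3, 36.2 and 26.4 CPM, lowest at 6 h (-0.56). Eif2b4 overlaps Snx17 on the other strand, and whether strand was used in counting is not given in the sources used here. Eif2a and Eif2d, which can deliver tRNA without eIF2, were at 131.8, 93.3 and 90.4 CPM and at 58.3, 48.7 and 52.9 CPM. Eif2a was lower at both times also with TMM factors (-0.23 and -0.42).

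eIF3, the large scaffold on the small subunit, showed the widest range of any role at both times. The median over its 14 genes was 0.26 at 3 h, with 10 above 0, and 0.04 at 6 h, with 7 above 0. In CPM they held 0.468%, 0.539% and 0.511% of all UMIs. Eif3k, a peripheral subunit, had 567 CPM in the control, then 1161 at 3 h and 979.7 at 6 h. Both tubercidin libraries were well above the control, with log2 ratios of 1.03 (interval 1.01 to 1.05) and 0.79 (0.77 to 0.81). With TMM factors the ratios were 1.30 and 0.91. Its annotated transcript is the shortest among the compared factors, 774 bases in 8 exons, with a 3' untranslated end of 38 bases.

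Another 5 eIF3 genes were above the control at 3 h. Eif3l, the partner of eIF3k, had 181.7, 279 and 208 CPM (0.62 and 0.20). Eif3g, an RNA-binding subunit, had 194, 279.9 and 249 CPM (0.53 and 0.36). Eif3d, which can itself bind capped ends, had 269, 380.0 and 357 CPM (0.50 and 0.41). Eif3h and Eif3f, the pair of subunits with a protease-like fold, had 348, 464 and 371 CPM and 329, 418 and 324 CPM. All of these were above the control at 3 h with CPM, TMM and median-of-ratios factors, and Eif3f was at the control level at 6 h (-0.02, interval -0.06 to 0.01).

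Another 3 eIF3 genes were high at 3 h and low at 6 h. Eif3m had 273, 323 and 202.5 CPM, so the 3 h library lay above the control and the 6 h library below it. Eif3i, a ring-shaped core subunit, had 247, 299 and 187.7 CPM. Eif3e had 365, 397 and 284 CPM. Between 6 h and 3 h the log2 ratios were -0.67, -0.67 and -0.48, in that order. Ccdc73 overlaps Eif3m on the other strand.

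The core genes Eif3a, Eif3b and Eif3c each had a pattern of their own. Eif3a, which forms the core with eIF3c, had 653 CPM in the control, then 384 at 3 h and 516 at 6 h. Its ratios were -0.77 (interval -0.80 to -0.74) and -0.34, lowest at 3 h. Eif3c had 867, 708 and 1007 CPM, below the control at 3 h (-0.29) and above it at 6 h (0.22). With TMM factors the 3 h value shrank to -0.03. Eif3b had 224.5, 224.7 and 327 CPM, level at 3 h on the CPM scale (with TMM factors 0.27) and higher at 6 h on both (0.54). Eif3j1, a loosely bound subunit, had 81.2, 42.8 and 61.7 CPM, and Eif3j2, a 1-exon copy of it, 80.1, 33.7 and 36.8 CPM. Eif3j2 was lower at both times (-1.23 and -1.10), with TMM -0.97 and -0.98. Its share of the pair was 49.7%, 44.0% and 37.4%, with intervals that did not overlap. How reads were divided between these near-identical genes was not tested, so both are uncertain, and Spg11 overlaps Eif3j1 on the other strand.

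**Figure D3:**
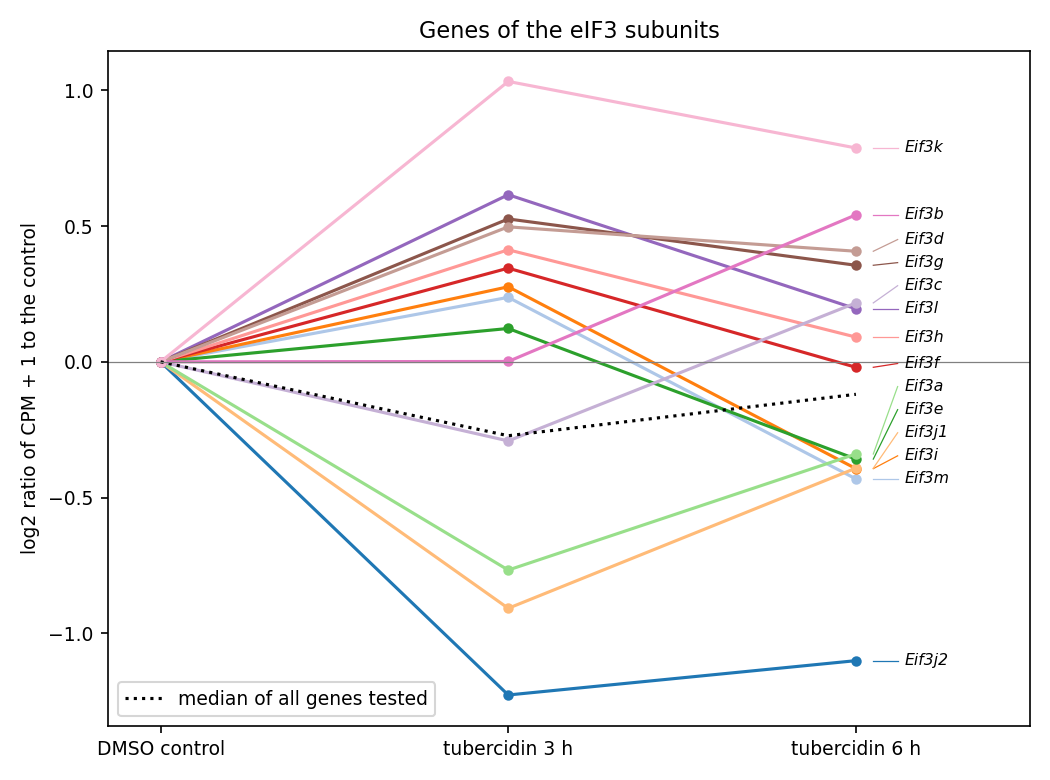
Log2 ratio of CPM + 1 to the DMSO control for the 14 eIF3 genes in the 3 libraries, each line 1 gene, with the median of all genes dotted. Eif3k lies above the others at both times, Eif3m, Eif3i and Eif3e cross from above to below the control, and Eif3c crosses from below to above.

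The eIF4 proteins bind the cap and unwind the mRNA. Eif4a1, the main helicase, had 1259, 1244 and 871 CPM, level at 3 h on the CPM scale (-0.02, with TMM factors 0.25) and lower at 6 h on both scales (-0.53, interval -0.55 to -0.51). Its second form Eif4a2 had 125.0, 114 and 94.1 CPM and held 9.03%, 8.39% and 9.75% of the pair's UMIs. Eif4a1 lies 692 bases downstream of Senp3 on the same strand, and Rfc4 overlaps Eif4a2 on the other. Eif4e, the cap-binding protein, had 178, 165 and 153 CPM. Eif4e2, a related cap binder that can repress translation, had 314, 352 and 371 CPM, and its share of the family was 63.8%, 68.0% and 70.8%, higher at each time beyond counting error. Eif4b and Eif4h, helpers of the helicase, stayed within 0.19 of the control in log2 ratio at both times on the CPM scale. With TMM factors Eif4b stood at 0.33 and 0.21, and Eif4h at 0.45 and 0.06.

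Among the scaffold proteins, Eif4g1, which joins cap, helicase and eIF3, had 300.1 CPM in the control, then 188 at 3 h and 282 at 6 h. It was low at 3 h alone, with a ratio of -0.67 (interval -0.72 to -0.63), and within 0.09 of the control at 6 h. The 6 h to 3 h ratio was 0.59, and with TMM or median-of-ratios factors it missed the 1.5-fold mark. Eif4g3, a second cap-linked form, had 96.2, 77.6 and 111.9 CPM. Eif4g2, a form without the cap-binding part, had 577, 494 and 499 CPM. It begins 34 bases downstream of 1700012D14Rik on the same strand. The family's UMIs divided as 30.8%, 24.8% and 31.6% for Eif4g1, 59.3%, 65.0% and 55.8% for Eif4g2 and 9.88%, 10.2% and 12.5% for Eif4g3. Free RNA at 3 h had 73.9 CPM of Eif4g1, far under the 188 of the cells, a log2 difference of -1.33 and the lowest of the compared factors.

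**Figure D4:**
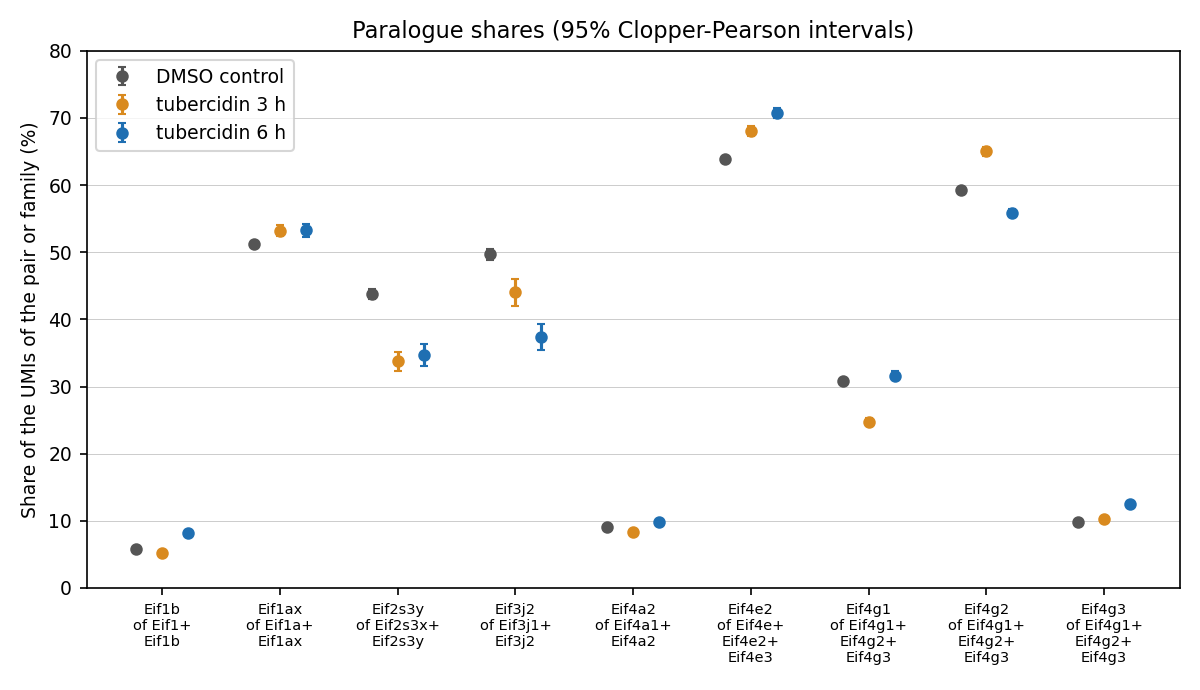
Share of a paralogue in the UMIs of its pair or family, in percent, with 1 point per library and 95% Clopper-Pearson intervals. Eif2s3y and Eif3j2 lie lower in both tubercidin libraries than in the control and Eif4e2 lies higher, while Eif4g1 is low at 3 h only.

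Subunit joining was mixed. Eif5, which triggers release of eIF2, had 397, 318 and 242 CPM (-0.32 and -0.71), lowest at 6 h. With TMM factors its ratios were -0.06 and -0.59. Eif5b, the joining GTPase, had 418, 282 and 352 CPM (-0.57 and -0.25), lowest at 3 h. Eif6, which keeps the large subunit apart until it is mature, had 258, 303 and 346 CPM (0.23 and 0.42), highest at 6 h. Rev1 overlaps Eif5b on the other strand.

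In elongation, Eef2, which moves the ribosome along the mRNA, had 634 CPM in the control, then 992 at 3 h and 916 at 6 h. Both tubercidin libraries were above the control, with ratios of 0.65 (interval 0.63 to 0.67) and 0.53 (0.51 to 0.55). With TMM factors they were 0.91 and 0.65. Eef1a1 was near the control at 3 h (-0.05) and lower at 6 h (-0.37). At 3 h the direction of Eef1a1 turned with TMM factors (0.22), while at 6 h it stayed below (-0.25). The exchange factor's genes differed: Eef1g was higher at both times (0.31 and 0.29, also with TMM), Eef1d, with 621, 689.7 and 739 CPM, likewise (0.15 and 0.25), and Eef1b2 was level at 3 h on the CPM scale (0.00035, with TMM 0.27) and lower at 6 h on both (-0.34). Naprt overlaps Eef1d on the same strand, Ndufs1 overlaps Eef1b2 on the other, and Eef1g begins 831 bases downstream of Tut1.

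Eef2k, the kinase that inhibits eEF2, was low throughout, at 9.37, 10.2 and 12.6 CPM, with a ratio of 0.40 at 6 h. Of the methyltransferases that modify eEF1A and eEF2, the 4 compared ones had ratios of -0.58 to -0.06 at 3 h and -0.43 to -0.08 at 6 h. Eef1aknmt was the lowest of them at 3 h and Eef2kmt at 6 h.

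Some genes carry factor names but act outside the core cycle. Eef1e1, also known as AIMP3 or p18, belongs to the complex of aminoacyl-tRNA synthetases. It had 78.5 CPM in the control, then 38.2 at 3 h and 26.7 at 6 h. The level was lower at each time, with ratios of -1.02 (interval -1.13 to -0.95) and -1.52 (-1.68 to -1.44), and with TMM factors -0.76 and -1.41. In no other factor gene compared was the 6 h ratio as low. Eif4a3, a core protein of the exon junction complex, had 246, 207 and 236 CPM. Eif4enif1, which carries the cap-binding protein into the nucleus, stood at -0.31 and -0.07, and Eif1ad at 0.08 and 0.22.

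The genes with the highest 3 h ratio and the lowest 6 h ratio, Eif3k and Eef1e1, were also followed cell by cell. Since cells differed in depth, each cell was thinned to 4000 UMIs, which left out 0, 122 and 284 shallower cells. Eif3k then had a UMI in 88.3% of control cells, 97.2% at 3 h and 97.0% at 6 h (unthinned 99.95%, 97.3% and 97.8%). Eef1e1 had one in 27.7%, 12.8% and 9.69% (unthinned 95.8%, 36.8% and 19.5%). The thinned intervals for Eef1e1 ran from 25.7 to 29.7, 11.4 to 14.2 and 8.59 to 10.9, so no 2 libraries overlapped. Free RNA held 413, 1251 and 826 CPM of Eif3k and 59.1, 37.0 and 19.8 CPM of Eef1e1, and no cell type that should lack the genes was present for a background. Among 33 genes with a thinned mean of at least 0.5 UMIs in every library, the variance over the mean across cells, 1 for random sampling alone, had medians of 1.08, 1.11 and 1.09. Among those genes Eef1a1 reached the highest value at 3 h, 1.90, and Eif2s2 in the control and at 6 h, 1.48 and 1.64. Eif2b3, whose thinned mean passed 0.5 UMIs in the control library alone, had a variance over mean of 2.88 there, beside 1.10 and 1.45 in the 3 h and 6 h libraries.

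The 9 factor genes known for TOP mRNAs were Eef1a1, Eef1b2, Eef1d, Eef1g, Eef2, Eif3e, Eif3f, Eif3h and Eif4b. At 3 h their median was 0.15 in log2 ratio, and 9 of 9 lay above the median gene, while the 47 other compared factors had a median of -0.13, with 30 above it. At 6 h the medians were 0.09 and -0.15. Between 6 h and 3 h the TOP genes stood at -0.32 and the others at 0.03, and 0 of the 9 lay above the median gene. With TMM factors the medians of the TOP genes were 0.42, 0.21 and -0.47, and those of the others 0.13, -0.03 and -0.12. The TOP genes had mean levels from 171.5 CPM (Eif4b) to 5158 CPM (Eef1a1). The 3 h ratio also rose with mean level, with a Spearman correlation of 0.335 across the compared factors and 0.176 across all genes. What part level has in the contrast was not tested. Of these genes only Eef1a1 and Eif3f had a pyrimidine run in a matched RefSeq window. The windows of Eef1d, Eef1g, Eif3e and Eif3h were not matched, and those of Eef1b2, Eef2 and Eif4b held no run of at least 8 bases opening with C. Shorter runs were not searched for, and the Eef2 stretch shown above holds one after the start (ctcttcc). A missing run of this length therefore does not mean a missing TOP motif.

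Ratios ran with base composition. Across the 56 genes the Spearman correlation of the log2 ratio with the GC content of the annotated transcript was 0.465 for 3 h and 0.635 for 6 h, beside 0.288 and 0.298 across all 7882 compared genes with a sequence. These correlations are across genes that share the same libraries, and are given as a description. Of the 28 genes with the higher GC content (50.3% to 57.9%), 16 were above the control at 3 h and 16 at 6 h. Of the 28 with the lower (39.5% to 50.1%), 6 and 4 were. Median ratios were 0.09 and 0.14 in the GC-rich set and -0.18 and -0.35 in the GC-poor set. Over all genes split the same way the medians were -0.14 and 0.02 on the GC-rich side, and -0.39 and -0.25 on the GC-poor side. Eef2 (57.0% GC) and Eif6 (57.9%) stood in the GC-rich set and Eef1e1 (44.1%) and Eif3a (44.5%) in the GC-poor set. In spite of high GC content, Eif1 (50.9%) was low at both times and Eif4g1 (54.2%) at 3 h (-0.67, against -0.09 at 6 h). The annotated transcripts used for Eif4a2 and Eif4g3 have a 3' untranslated end of 3 bases. Their GC content, and their length used below, may therefore not describe the RNA counted.

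**Figure D5:**
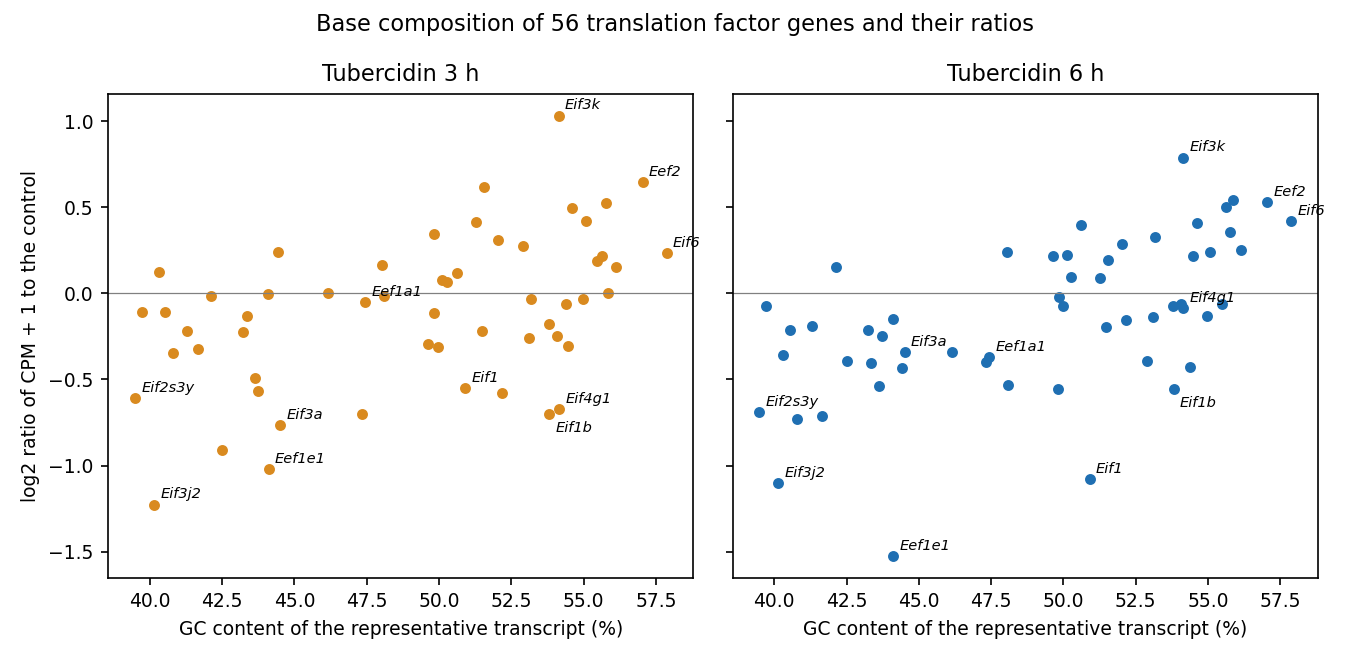
GC content of the annotated transcript in percent against the log2 ratio of CPM + 1 to the DMSO control, at 3 h (left) and 6 h (right), 1 point for each of the 56 compared factor genes. Genes under 50% GC lie mostly below the line of no difference at 6 h, with 4 of the 28 in the GC-poor set above it.

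Transcript length ran with the time course. The correlation with spliced length was -0.324 at 3 h, 0.058 at 6 h and 0.434 between 6 h and 3 h, beside -0.251, -0.0047 and 0.359 across all genes. The 18 longest transcripts (2945 to 7995 bases), which include Eif4g1 and Eif3a, had a median of -0.30 at 3 h, and 0.26 from 3 h to 6 h. The 19 shortest (774 to 1794 bases), which include Eif3k and Eif1, had -0.02 and -0.18.

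Medians of the pathway's other genes lay below the control in each list on the CPM scale, as did that of all genes (-0.27 and -0.12). With TMM factors the 6 h median of the genes that modify elongation factors turned to 0.0054, and the medians of the other lists stayed below the control. The shares of all genes past 1.5-fold, given above, were 24.5% lower and 3.61% higher at 3 h and 16.9% and 7.06% at 6 h. Of 15 compared genes that control initiation, 0 were 1.5-fold higher and 6 lower at 3 h, and 1 was higher and 3 lower at 6 h, with medians of -0.46 and -0.21. Ppp1r15a, a phosphatase subunit that restores eIF2, had 19.7, 7.86 and 10.6 CPM. Atf4, the stress transcription factor made when eIF2 is phosphorylated, had 182.0, 77.6 and 63.6 CPM. Eif4ebp1, the inhibitor of the cap-binding protein, had 608, 699 and 711 CPM. Eif2ak3, the eIF2 kinase of the endoplasmic reticulum, had 16.2, 14.0 and 25.7 CPM, highest at 6 h.

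Of 10 partners at cap and tail, 3 were 1.5-fold lower at 3 h and 2 at 6 h, and 0 higher. Pabpc1, the main poly(A)-binding protein, had 809, 435 and 330 CPM (-0.89 and -1.29), and Mcts2, a reinitiation factor, 33.7, 41.5 and 37.3 CPM. Among 6 termination and recycling genes 2 were 1.5-fold lower at each time, and Gspt2, a release factor, had 15.7, 7.06 and 8.14 CPM. Of 6 genes that modify elongation factors none passed 1.5-fold at either time; Dhps, which makes hypusine on eIF5A, was lowest at 3 h (-0.43). Of 8 mitochondrial factors, 3 were 1.5-fold lower at 3 h, and at 6 h 1 was lower and 1 higher. Those were Tsfm, with 67.2, 36.5 and 22.6 CPM, and Tufm, the mitochondrial counterpart of eEF1A, with 55.4, 69.9 and 89.2 CPM. Tsfm encodes the exchange factor that recharges the Tufm protein.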

How the data were processed

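Polyadenylated RNA of single E14 cells was measured in 3 libraries, 1 per group, by 10x Genomics 3' barcoding. The authors deposited whole UMI counts for every gene and barcode, from Cell Ranger 7.1.0 per the file headers, and on mm10 per the submitters' processing notes. The annotation, and whether introns and strand were used in counting, are not given in the sources used here.

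A barcode was called a cell when its UMIs reached 0.1 of the 99th percentile among the top 3000, when it had 500 genes or more, and when no more than 20% of its UMIs were mitochondrial. Doublets were kept, with cells above 2 times the median UMIs left out as an alternative. Cells were neither clustered nor typed. Counts were summed over cells, scaled to CPM and compared as log2 ratios of CPM + 1 for genes reaching 10 CPM in the mean. Intervals, for ratios without the pseudocount, are exact conditional binomial intervals, and those of shares are Clopper-Pearson. A count of 0 allows up to 3 counts. With 1 library per group no test was possible. TMM (edgeR 4.0.16, R 4.3.3) and median-of-ratios factors came from the 7884 compared genes. The statistics were tested on simulated data.

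Any compared member could be named. Full values went to the 6 highest and 6 lowest ratios at each time, the 5 highest levels, members past 2-fold and paralogues, and in pathway lists to the extremes. Members and lists were chosen with earlier results of these data known. Transcripts (protein-coding, longest coding part), GC content and neighbours came from GENCODE M21 (GRCm38), and start windows from RefSeq GRCm38.p6. Scripts ran in Python 3.11.15 with scipy 1.17.1, pandas 2.3.3, numpy 2.4.6 and, for plots, matplotlib 3.10.9.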

Additional observations from a re-analysis of the deposited data

Results flagged for a closer look

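On the CPM scale the counting intervals of 5 genes lay on opposite sides of the control at 3 h and 6 h, and with TMM and median-of-ratios factors their ratios kept opposite signs. With 1 library per time the difference between the times was not tested. Against the control, Eif3m stood at 0.24 and then -0.43, a log2 ratio of -0.67 between 6 h and 3 h. Eif3i stood at 0.28 and -0.39, and its ratio between 6 h and 3 h was -0.67. Eif3e stood at 0.12 and -0.36, a ratio of -0.48 between the times. Eif4g3 went the other way, from -0.31 to 0.22, with a ratio of 0.52 between the times. Eif3c went from -0.29 to 0.22, with a ratio of 0.51. With TMM factors the 3 h values of Eif4g3 and Eif3c were -0.04 and -0.03, and with median-of-ratios factors -0.029 and -0.012, so their low 3 h level was close to that of the median gene.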

How the results depend on the processing

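No paired analysis was possible because each group has 1 library, and for the same reason no library could be left out. Scaling moved the results most. With UMIs per cell in place of CPM, no factor gene was higher than the control: 0 were 2-fold or 1.5-fold higher at 3 h, 55 were 2-fold and 56 1.5-fold lower, with a median of -2.04 (0.11 above all genes); at 6 h 0 were 1.5-fold higher, 56 were 2-fold and 56 1.5-fold lower, with a median of -2.65 (-0.12 against all genes). Eif3k, Eef2 and Eif3l then turned to -0.99, -1.38 and -1.40 at 3 h, and Eif3k to -1.82 at 6 h. Between 6 h and 3 h, UMIs per cell gave 5 genes 2-fold lower, 28 1.5-fold lower and a median of -0.58.

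With median-of-ratios factors 0 genes were 2-fold lower at 3 h, 9 were 1.5-fold higher and 3 lower (median 0.22); with TMM factors 0, 8 and 3 (0.20). At 6 h either scaling gave 1 gene 2-fold lower and 4 1.5-fold higher, with medians of -0.0073 and -0.017. Between 6 h and 3 h they gave 7 and 6 genes 1.5-fold lower, with medians of -0.16 and -0.15. Equal weight per cell left 0 genes 2-fold higher at 3 h, and a mean of at least 50 CPM left 1 gene 2-fold lower. Without the filter on the mean, the factors' median less that of all genes was -0.014 at 3 h and -0.13 at 6 h, since low genes then entered. The 1 gene 1.5-fold higher at 6 h than at 3 h, Eif4g1 at 0.59, was lost (0 genes) without mitochondrially encoded genes, with median-of-ratios or TMM factors, UMIs per cell, equal weight per cell, the cell minimum halved, cells above 2 times the median left out, or free RNA subtracted, and 2 genes passed without the filter. The cause was not tested. The share of UMIs in the 63 genes stayed within 2.55% to 2.58%, 2.52% to 2.60% and 2.34% to 2.37% over the alternatives.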
